A study of Mus musculus with 12 samples.

Results

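The 10 genes described here encode transcription factors and effectors of the integrated stress response: Atf4, Atf5, Ddit3, Trib3, Chac1, Asns, Nupr1, Ppp1r15a, Cebpb and Cebpg. They were chosen by name for their known roles in the pathway, with earlier results of these data known, so the counts below are not independent of that choice. All 10 were found among the 39179 gene IDs of the count table. RNA was sequenced from mouse Th1 cells, a helper T cell type known for interferon-gamma, in 2 wild-type (WT) and 2 LDHA-KO libraries on a C57BL/6 background. LDHA is lactate dehydrogenase A, which turns pyruvate into lactate. All cells had been primed as naive CD4+ cells on anti-CD3 (5 µg/ml) with anti-CD28 (2 µg/ml), IL-2 (100 U/ml), anti-IL-4 (10 µg/ml) and IL-12 (10 ng/ml) for 3 days. They then received PMA (50 ng/ml) and ionomycin (1 µM) for 4 h, together with GolgiStop, which stops cytokine release. The medium held 2 mM glutamine, 1 mM pyruvate, non-essential amino acids and 55 µM 2-mercaptoethanol in both genotypes. The labels name neither the deleting Cre or promoter nor the age of the mice, and do not say whether libraries of a genotype came from separate mice, so the p-values rest on a spread that may be technical. In such bulk RNA, fewer cells of a type and less RNA per cell cannot be told apart.

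In the integrated stress response, kinases that sense amino acid shortage, misfolded protein, viral RNA or mitochondrial and haem stress phosphorylate the translation factor eIF2. Most translation then slows, while the Atf4 messenger RNA is translated more, so ATF4 protein can change with little change in its transcript. ATF4 pairs with C/EBP proteins such as those of Cebpb and Cebpg, and turns on genes for amino acid synthesis and transport. It also turns on Ddit3, which encodes CHOP, and genes such as Ppp1r15a that restore translation.

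Library totals ranged from 919741 to 1293178 counts, so that 1 count was worth 0.765 to 1.13 CPM, the usual count scaled for library size, here with the trimmed-mean (TMM) factors of edgeR. Ldha, the targeted gene, held 1055 and 1006 counts in WT against 42 and 53 in LDHA-KO. Summed levels of 6 T cell markers were 1172 and 1283 CPM in WT and 1152 and 1114 CPM in LDHA-KO. Within that sum Cd4 stood at 204 and 221 CPM in WT and 314 and 293 CPM in LDHA-KO, while Cd5 (521 and 589 against 434 and 413 CPM) and Cd28 (272 and 292 against 207 and 187 CPM) lay lower in LDHA-KO. Those of 5 Th1 markers were 1999.4 and 1999.1 CPM in WT against 672 and 658 CPM in LDHA-KO, mostly through Ifng (1585 and 1580 against 382 and 387 CPM). Tbx21, which encodes the Th1 factor T-bet, stood at 133 and 123 against 111 and 102 CPM. The 2 CD8 markers summed to 1.58 to 5.36 CPM in WT and 3.39 to 7.92 CPM in LDHA-KO, the 5 B cell markers to 7.91 to 10.7 and 4.52 to 8.81 CPM, and the 3 NK markers to 5.54 to 6.12 and 3.39 to 7.04 CPM. Cd79b, Ncr1, Klrb1c, Hba-a1 and Hbb-bs were at 0 counts in all libraries. The 2 regulatory T cell markers summed to 83.0 to 97.9 CPM in WT and 107 to 113 CPM in LDHA-KO. This sum came almost wholly from Foxp3 (96 to 126 counts), while Ikzf2 held 1 to 4 counts. The 3 erythroid markers summed, through Alas2 alone, to 14.2 to 16.1 CPM in WT and 1.13 to 6.16 CPM in LDHA-KO. The 6 myeloid markers summed to 327 to 331 CPM in WT and 393 to 409 CPM in LDHA-KO, almost wholly from Csf1r (348 to 462 counts), while Lyz2 and Adgre1 were at 0. The part of other cells in the results below was not tested. Which strand was counted is not given in the sources used here. mt-Nd6, the protein gene on the opposite mitochondrial strand to the rest, held 736 to 1902 counts against 198 to 307 for mt-Cytb. Whether the table counts the opposite strand was not tested. If it does, each value below is of reads antisense to its gene, and the level of the gene itself was not measured.

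Across the 10 genes, the transcript of Atf4, at the head of the pathway, was not called, while most partner and target genes were called lower by edgeR. All 10 passed the filter on low counts, and 7 fell in LDHA-KO: Nupr1, Chac1, Asns, Cebpb, Cebpg, Trib3 and Ddit3. None was called higher, and Atf4, Atf5 and Ppp1r15a were not called. Over all 9914 tested genes, 31.0% were called, 15.4% lower and 15.6% higher, by edgeR's quasi-likelihood test at an adjusted p under 0.05. The median log2 fold change (LDHA-KO minus WT) was -0.63 over the 10 genes and -0.01 over all tested genes. Of all calls, 50.4% were higher with the TMM scaling used here and 38.3% with library totals alone, and the same 7 of the 10 genes were called under both. With library totals alone, 19.0% of all tested genes were called lower. DESeq2 called 901 of 8530 genes, 506 higher and 395 lower. Of the 10 genes, it gave an adjusted p for 9, all but Nupr1, and called 0, with 3 at an unadjusted p under 0.05. Leaving out a library leaves 1 library in its genotype. The median over the 10 genes was then -0.50 without WT replicate 1 and -0.72 without WT replicate 2. It was -0.46 without LDHA-KO replicate 1 and -0.78 without LDHA-KO replicate 2. Over all tested genes these medians ran from -0.016 to 0.002.

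**Figure D1:**
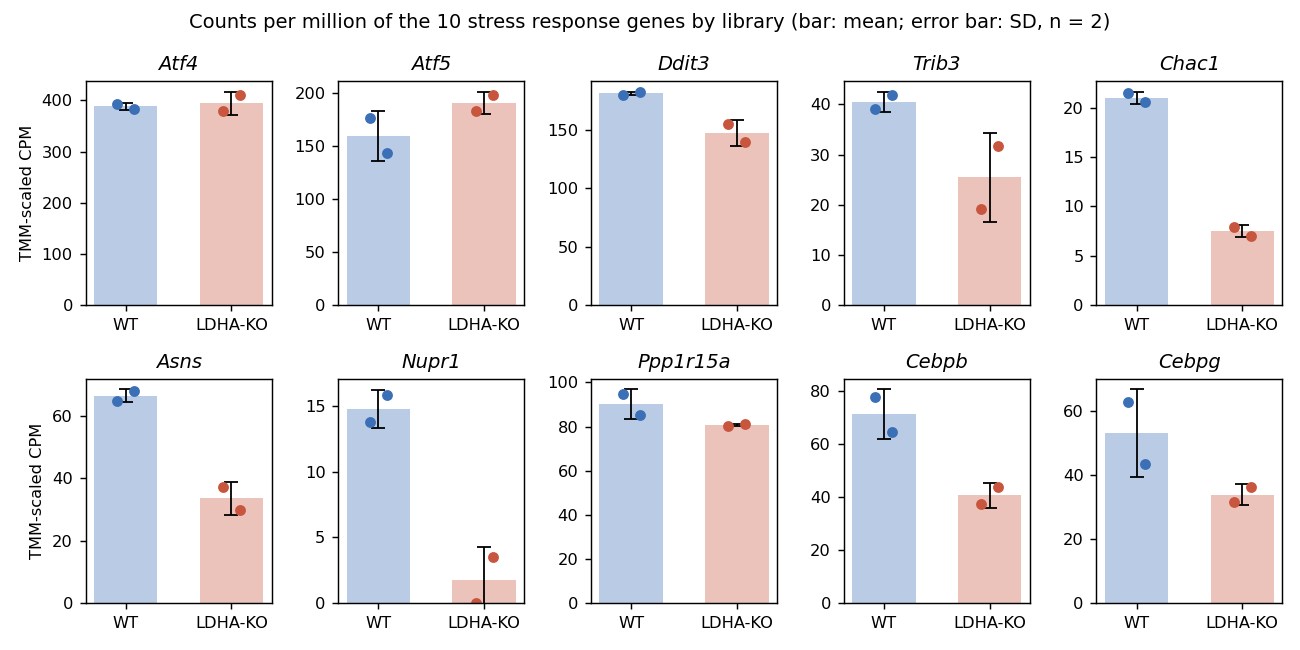
TMM-scaled CPM of each of the 10 genes (vertical axes, from 0) in WT (blue) and LDHA-KO (red); points are libraries, bars the mean and error bars the SD of 2 libraries. Atf4 sits between 379 and 410 CPM in all 4 libraries, while both LDHA-KO points of Asns, Chac1 and Nupr1 lie well under both WT points.

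Atf4 (ENSMUSG00000042406; chromosome 15, 80255184 to 80257545, plus strand, GRCm38.p6) encodes the central transcription factor of the response. It held 514 and 485 counts in WT against 335 and 466 in LDHA-KO, or 393 and 384 CPM against 379 and 410 CPM. The groups overlapped, with LDHA-KO replicate 1 lowest and LDHA-KO replicate 2 highest. The log2 fold change was 0.03 (SE 0.08, 95% confidence interval -0.13 to 0.19, edgeR adjusted p = 0.839). A fall the size of those of Asns or Chac1 lies outside this interval. These values concern RNA counts alone, since ATF4 protein was not measured.

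The 5 tested genes closest in pattern to Atf4 were Nans, Gm5898, Gimap5, Atg4d and Rab7. Likeness was the distance between centred log2 CPM profiles over the 4 libraries, among 7036 genes with a mean of at least 20 CPM, and these lay 0.02 to 0.03 from Atf4. None was called, and their log2 fold changes ran from 0.00 (Rab7) to 0.05 (Gimap5). With 4 libraries, such likeness describes a flat profile.

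Atf5 (chromosome 7, 44812256 to 44816658, minus strand), whose transcript is also translated preferentially when eIF2 is phosphorylated, pointed the other way from the targets. It held 230 and 181 counts in WT against 162 and 225 in LDHA-KO, or 176 and 143 CPM against 183 and 198 CPM. Both LDHA-KO libraries lay above both WT libraries, by a margin smaller than the gap within WT. The log2 fold change of 0.26 (SE 0.11) was not called (edgeR adjusted p = 0.0760). Without WT replicate 1 it was 0.42 and was called higher (adjusted p = 0.0177). Atf5 overlaps Nup62 over 571 bp and Il4i1b over 289 bp, both on the opposite strand.

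Ddit3 (chromosome 10, 127290793 to 127296291, plus strand), the gene for CHOP, a factor linked to cell death in prolonged stress, fell by the least of the 7. Its counts were 235 and 230 in WT against 137 and 158 in LDHA-KO, or 180 and 182 CPM against 155 and 139 CPM. The groups did not overlap. Both LDHA-KO libraries were below both WT libraries for 32.6% of all tested genes, so this alone is common in these data. The change in Ddit3 was -0.31 log2 units (SE 0.11, edgeR adjusted p = 0.0341), and the call held in 2 of 10 alternative analyses. Ddit3 overlaps 2 opposite-strand genes, Mars1 over 71 bp and Mbd6 over 77 bp. Mars1, listed as Mars in the count table, had 239 and 257 counts in WT against 140 and 183 in LDHA-KO (log2 change -0.27 with SE 0.11, adjusted p = 0.0545 by edgeR). Mars was called lower with library totals alone (-0.35) and without WT replicate 1 (-0.35). A part of Mars reads in the Ddit3 count was not tested.

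The C/EBP partners Cebpb and Cebpg both fell. Cebpb (chromosome 2, 167688915 to 167690432, plus strand) encodes an inflammatory and stress-induced factor that binds DNA together with ATF4 or CHOP. It held 102 and 82 counts in WT against 33 and 50 in LDHA-KO, or 78.0 and 64.8 CPM against 37.3 and 44.0 CPM. The fall of Cebpb, -0.80 on the log2 scale with SE 0.19, had an adjusted p of 0.00111 by edgeR, and the call held in 9 of 9 edgeR alternatives, with values of -0.93 to -0.66. Cebpg (chromosome 7, 35046422 to 35056566, minus strand), a C/EBP protein that lacks an activation domain and pairs with ATF4, held 82 and 55 counts in WT against 28 and 41 in LDHA-KO. In CPM the WT libraries stood at 62.7 and 43.5 and the LDHA-KO libraries at 31.7 and 36.1, so WT replicate 1 was much the highest. The log2 fold change of -0.64 (SE 0.22, adjusted p = 0.0213 by edgeR) dropped to -0.35 without WT replicate 1 (adjusted p = 0.361). It also lost its call without LDHA-KO replicate 1 (-0.55) or LDHA-KO replicate 2 (-0.74). Cebpg overlaps the gene model Gm45095 over 1084 bp on the other strand, and Cebpb overlaps no RefSeq gene.

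Nupr1 (chromosome 7, 126623246 to 126625470, minus strand), a small stress-induced chromatin protein gene that ATF4 activates, had the largest fitted fall. It held 18 and 20 counts in WT against 0 and 4 in LDHA-KO, or 13.8 and 15.8 CPM against 0 and 3.52 CPM. A count of 0 in LDHA-KO replicate 1 allows up to 3.39 CPM (3 counts). The LDHA-KO over WT ratio of summed counts was 0.134 (95% exact counting interval 0.0347 to 0.372; such intervals cover counting error only). The fitted log2 fold change of -2.83 (SE 0.60, adjusted p = 0.000261 by edgeR) depends on how the 0 is handled and was -7.10 without LDHA-KO replicate 2 and -2.03 without LDHA-KO replicate 1. Nupr1 lies wholly within the opposite-strand noncoding gene model Gm39087, and how much of its count belongs to that model was not tested.

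Short stretches of 5 promoters are shown. Of the genes that fell, 4 hold, near their start, the 8 bases to which ATF4 and C/EBP pairs bind. Ppp1r15a, which was not called, holds another element. The sequences are RefSeq's on GRCm38.p6, read on the strand of each gene, 5′ to 3′, with the matching bases in capitals. The element searched was the core of the C/EBP-ATF response element, TGATGNAA, on both strands, so it also appears as its reverse complement.
Asns, chr6:7693210-7693252, minus strand: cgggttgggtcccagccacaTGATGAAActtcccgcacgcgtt
Chac1, chr2:119351029-119351076, plus strand: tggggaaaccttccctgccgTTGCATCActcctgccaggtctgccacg
Nupr1, chr7:126625553-126625600, minus strand: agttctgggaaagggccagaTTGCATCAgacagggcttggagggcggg
Trib3, chr2:152344039-152344066, minus strand: agcagcagattagctcaggtTTACATCA
Ppp1r15a, chr7:45526269-45526300, minus strand: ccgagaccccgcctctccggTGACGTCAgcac

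All 10 genes matched a promoter window, which runs from 250 bases before to 50 after the start. The core lies at -23 to -16 from the start in Asns, -193 to -186 in Chac1, -110 to -103 in Nupr1, and 15 to 22 after the start in Trib3. It was found in 4 of the 10 genes, and in 3.97% of 32851 promoter windows of the same length. Counted by gene, 196 of the 7163 tested genes with a window hold it. The 10 genes include known ATF4 targets, so finding the core among them is not independent of their choice. The capitals in Ppp1r15a are the cyclic AMP response element, TGACGTCA, at -12 to -5, which 1.79% of windows hold. The endoplasmic reticulum stress element (CCAAT and CCACG 9 bases apart) was in 0.119% of windows and in none of the 10. No run of 8 bases can match both TGATGNAA and TGACGTCA, since their letters differ at fixed places. A match is a run of letters and not a measured binding site.

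Asns (chromosome 6, 7675165 to 7693209, minus strand), the gene for asparagine synthetase and a classical ATF4 target, fell to about the level of WT multiplied by 0.499 (95% counting interval 0.370 to 0.665 on summed counts). It held 85 and 86 counts in WT against 33 and 34 in LDHA-KO, or 65.0 and 68.0 CPM against 37.3 and 29.9 CPM. Both WT values stood far above both LDHA-KO values. Its log2 fold change was -1.0 (SE 0.20, 95% confidence interval -1.41 to -0.60, edgeR adjusted p = 0.000127). It was -1.14 to -0.82 across the alternatives and called in 9 of 9 with edgeR, while DESeq2 gave an adjusted p of 0.0598.

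Chac1 (chromosome 2, 119351242 to 119354326, plus strand), which encodes an enzyme that degrades glutathione and lies downstream of ATF4 and CHOP, also fell. It held 28 and 26 counts in WT against 7 and 8 in LDHA-KO, or 21.4 and 20.6 CPM against 7.91 and 7.04 CPM. Replicates lay close together and the genotypes far apart. The LDHA-KO over WT ratio of summed counts was 0.354 (95% counting interval 0.185 to 0.636). Its log2 fold change was -1.49 (SE 0.38, edgeR adjusted p = 0.00203), called in 9 of 9 edgeR alternatives and not by DESeq2 (adjusted p = 0.187).

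Trib3 (chromosome 2, 152337425 to 152344060, minus strand) encodes a pseudokinase that is induced by ATF4 and CHOP and feeds back on both. It held 51 and 53 counts in WT against 17 and 36 in LDHA-KO, or 39.0 and 41.9 CPM against 19.2 and 31.7 CPM. The LDHA-KO libraries differed from each other by more than LDHA-KO replicate 2 differed from WT. The log2 fold change was -0.62 (SE 0.24, edgeR adjusted p = 0.0445). It was -0.34 without LDHA-KO replicate 1 (adjusted p = 0.419) and -1.06 without LDHA-KO replicate 2 (adjusted p = 0.0182), and lost its call in 6 of 10 alternatives.

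Ppp1r15a (chromosome 7, 45522917 to 45526268, minus strand) encodes GADD34, the stress-induced phosphatase subunit that removes the phosphate from eIF2. It held 124 and 108 counts in WT against 71 and 92 in LDHA-KO, or 94.9 and 85.4 CPM against 80.3 and 81.0 CPM. The LDHA-KO libraries were just under both WT libraries. A log2 fold change of -0.16 (SE 0.15, 95% confidence interval -0.46 to 0.14) was not called (edgeR adjusted p = 0.447), nor was it in any of 10 alternatives. Its opposite-strand neighbour Tulp2, which overlaps it over 730 bp, held 13 to 22 counts per library.

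**Figure D2:**
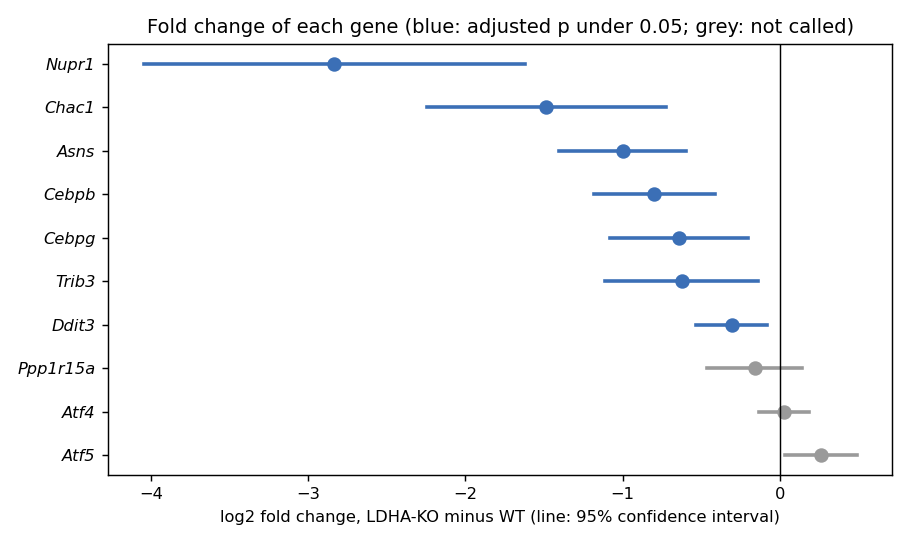
Log2 fold change, LDHA-KO minus WT (horizontal axis), of the 10 genes with 95% confidence intervals from edgeR; blue genes had an adjusted p under 0.05. The order runs from Nupr1 (-2.83) to Atf5 (0.26), and the intervals of Atf4 and Ppp1r15a span 0.

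The order of the fold changes was Nupr1, Chac1, Asns, Cebpb, Cebpg, Trib3, Ddit3, Ppp1r15a, Atf4 and Atf5. The 95% confidence intervals of neighbours in this order overlapped, and differences between genes were not tested. Of the 5 genes that overlap no RefSeq gene (Atf4, Trib3, Chac1, Asns and Cebpb), 4 fell, and of the 5 that overlap another, 3 fell. Over all tested genes 15.4% were called lower. The shares among all tested genes with and without an overlap were not computed, and a part of overlapping genes in the falls was not tested.

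Counts set against the Atf4 count of the same library do not depend on how libraries are scaled. Asns stood at 16.5% and 17.7% of the Atf4 count in WT and 9.85% and 7.30% in LDHA-KO. Chac1 stood at 5.45% and 5.36% against 2.09% and 1.72%, and Nupr1 at 3.50% and 4.12% against 0 and 0.858%. Each of these genes was thus lower relative to Atf4 in both LDHA-KO libraries. Cebpb went from 19.8% and 16.9% to 9.85% and 10.7%, and Trib3 from 9.92% and 10.9% to 5.07% and 7.73%. Ddit3 stood at 45.7% and 47.4% against 40.9% and 33.9%, and Cebpg at 16.0% and 11.3% against 8.36% and 8.80%. Ppp1r15a had 24.1% and 22.3% against 21.2% and 19.7%, and Atf5, in the other direction, 44.7% and 37.3% against 48.4% and 48.3%. The genotypes did not overlap for any of the 9 ratios, which share the Atf4 count. The share of all tested genes whose ratio to Atf4 separates the genotypes was not computed, so this count has no background. In CPM, both LDHA-KO libraries were below both WT libraries for 32.6% of all tested genes. That share leaves out genes that separate in the other direction, as Atf5 does. With 2 libraries per genotype no exact permutation test of a ratio can reach a p under 0.05. Levels were not compared between genes, because transcript lengths were not used here.

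**Figure D3:**
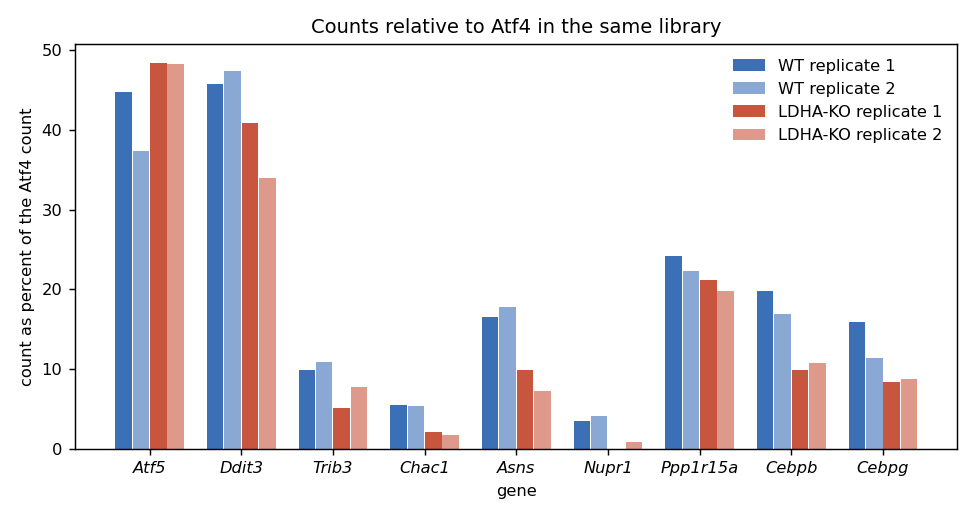
Count of each gene as a percent of the Atf4 count in the same library (vertical axis, from 0), in WT (blue) and LDHA-KO (red) with replicate 2 in the paler shade. Asns falls from 16.5% and 17.7% to 9.85% and 7.30%, whereas Atf5 is higher in LDHA-KO.

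**Figure D4:**
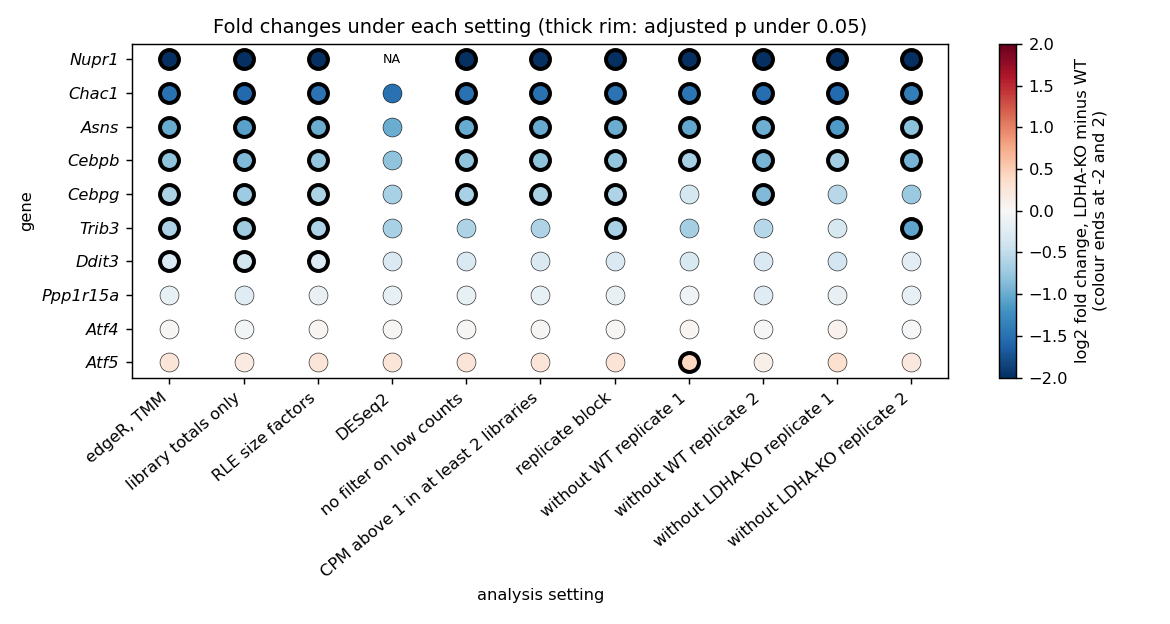
Log2 fold changes (colour) of the 10 genes (rows) under the chosen analysis and each of 10 alternatives (columns); a thick rim marks an adjusted p under 0.05 and NA a missing adjusted p. Nupr1, Chac1, Asns and Cebpb keep the rim in every edgeR column, and no gene has it under DESeq2.

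Upstream of Atf4, of the 4 eIF2 kinase genes 2 fell, 1 rose and 1 was not called. Eif2ak2, the gene for the double-stranded RNA sensor PKR, which interferons also induce, fell from 65 and 74 counts to 14 and 26 (54.1 ± 6.21 to 19.4 ± 5.00 CPM as mean and SD, n = 2; log2 change -1.44 with SE 0.24, adjusted p = 6.68e-06 by edgeR). Eif2ak3, the gene for PERK, the kinase of the endoplasmic reticulum, fell from 88 and 63 counts to 30 and 26 (log2 change -1.08 with SE 0.23, adjusted p = 0.000222 by edgeR). Eif2ak4, for the amino acid sensor GCN2, had 60 and 55 counts against 25 and 39 (-0.50, SE 0.22, adjusted p = 0.0806). Eif2ak1, for the haem-regulated kinase that also relays mitochondrial stress, rose from 473 ± 8.80 to 554 ± 5.42 CPM (log2 change 0.23 with SE 0.07, adjusted p = 0.0119 by edgeR). Ppp1r15b, the constitutive counterpart of Ppp1r15a, rose from 182 and 167 counts to 146 and 195 counts of smaller libraries, or from 136 ± 5.09 to 168 ± 4.70 CPM (0.31, SE 0.11, adjusted p = 0.0339). Of 15 tested genes of the kinases, eIF2 and its exchange factor eIF2B, 2 rose, 2 fell and 11 were not called, with a median of 0.09, shares near the 15.6% called higher and 15.4% called lower over all tested genes. Both rises lost their call with library totals alone, and when WT replicate 2 or LDHA-KO replicate 2 was left out. Ppp1r15b also lost it without WT replicate 1 or LDHA-KO replicate 1. Eif2ak4 was called lower with library totals alone (-0.58, adjusted p = 0.0396 by edgeR). DESeq2 called 1 of the list, lower.

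ATF4 targets of amino acid synthesis and transport, a list that leaves out the 10 genes, mostly moved the way of Asns. Of 17 tested, 9 fell, 1 rose and 7 were not called, with a median log2 fold change of -0.38. Over all tested genes, 15.4% were called lower and 15.6% higher. Cth, which encodes the enzyme that makes cysteine from cystathionine, fell most, from 35 and 44 counts to 7 and 14 (30.8 ± 5.67 to 10.1 ± 3.12 CPM; -1.55, SE 0.32, edgeR adjusted p = 0.000206). The glycine transporter gene Slc6a9 (-0.88, SE 0.30, adjusted p = 0.0219) and the aspartate aminotransferase gene Got1 (-0.64, SE 0.18, adjusted p = 0.00563) also fell. Slc7a5, for the large neutral amino acid transporter, went from 428 ± 26.3 to 268 ± 33.2 CPM (-0.69). Slc3a2, which encodes its partner chain, was the riser, from 248 and 243 to 251 and 330 counts (191 ± 1.69 to 287 ± 4.81 CPM; log2 fold change 0.59). The number called lower was 6 without WT replicate 1, 5 without WT replicate 2, LDHA-KO replicate 1 or LDHA-KO replicate 2, and 1 by DESeq2, which also called 1 higher. Slc6a9 lost its call without WT replicate 2 (-0.53) or LDHA-KO replicate 2, and Got1 without WT replicate 2 or LDHA-KO replicate 1.

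Cytosolic aminoacyl-tRNA synthetase genes, which charge transfer RNAs and several of which ATF4 activates, split within the family. Of 20 tested, 8 fell, 1 rose and 11 were not called (median -0.19), and DESeq2 called 3 lower. The edgeR shares over all tested genes were 15.4% lower and 15.6% higher. Lars, for leucine, fell from 169 and 177 counts to 43 and 77 (135 ± 7.53 to 58.2 ± 13.6 CPM; -1.18, SE 0.15, edgeR adjusted p = 4.62e-08). Wars, for tryptophan, fell by 0.69, Gars, for glycine, by 0.59 and Cars, for cysteine, by 0.55 on the log2 scale. The riser was Kars, for lysine (0.31). No synthetase gene was called higher with library totals alone, by DESeq2, or without WT replicate 1, LDHA-KO replicate 1 or LDHA-KO replicate 2.

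Targets of ATF4 and CHOP in stress signalling and cell death moved both ways. Of 13 tested, 4 rose, 3 fell and 6 were not called (median -0.11), beside 15.6% higher and 15.4% lower over all tested genes. Bcl2l11, which encodes the death-promoting protein BIM, rose from 22 and 18 counts to 61 and 59 (15.5 ± 1.84 to 60.5 ± 12.0 CPM; log2 change 1.93 with SE 0.24, adjusted p = 2.69e-08 by edgeR). Sesn2, for the leucine sensor sestrin 2, rose by 0.69 and Bbc3, for the death-promoting protein PUMA, by 0.58 (adjusted p = 0.0193). Both Bcl2l11 and Bbc3 are also targets of FOXO factors or p53. Hmox1, for haem oxygenase, went from 15 and 22 counts to 2 and 7 (-1.67, SE 0.49, adjusted p = 0.00748). Atf3, a factor that ATF4 induces and whose promoter holds the core at -110 to -103, had 95 and 94 counts against 46 and 70 (log2 change -0.36 with SE 0.17, adjusted p = 0.113 by edgeR), and was called lower with library totals alone (-0.44, adjusted p = 0.0478). Gdf15 held 1 count in all libraries together and Fgf21 0, so these stress-induced hormone genes could not be tested. DESeq2 called 2 of the list higher and 0 lower, with 3 of 12 at an unadjusted p under 0.05. With library totals alone 3 were called higher and 5 lower, and 2 were called higher without WT replicate 2 or LDHA-KO replicate 2. Hmox1 lost its call without WT replicate 2 (-1.35) or LDHA-KO replicate 1 (-1.20) and was -2.61 without LDHA-KO replicate 2, and Bbc3 lost its call without WT replicate 1, WT replicate 2 or LDHA-KO replicate 2.

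Genes of the IRE1 and ATF6 branches are the other arms of the unfolded protein response. Of 23 tested, 12 were called lower and 0 higher, with a median of -0.53. All tested genes had 15.4% lower and 15.6% higher. Ern1, the gene for IRE1, fell from 49 and 59 counts to 10 and 11 (42.1 ± 6.48 to 10.5 ± 1.15 CPM; log2 change -2.0 with SE 0.30, adjusted p = 7.09e-07 by edgeR). Atf6, for the second sensor, fell by 0.66 (adjusted p = 0.00206). Genes below them fell too, among them Xbp1 (-1.26), which encodes the factor that IRE1 activates, and the protein folding genes Pdia6 (-1.11) and Hyou1 (-0.87). DESeq2 called 8 of 22 lower, and 10 to 12 were called lower when single libraries were left out. Atf6 lost its call without LDHA-KO replicate 2 (-0.48).

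Other bZIP factors, the family that ATF4, CHOP and the C/EBP proteins belong to, were called lower more often than higher by edgeR. Of 27 tested, 10 fell, 3 rose and 14 were not called (median -0.21). Over all tested genes, 15.4% fell and 15.6% rose, so the share that rose here is below that of all genes. Jun rose from 230 and 191 counts to 398 and 504 (log2 fold change 1.45). Bach1, a haem-regulated repressor gene, fell from 19 and 17 counts to 7 and 2 (-1.63, SE 0.50, edgeR adjusted p = 0.0104). Creb3l2 went from 69 and 64 counts to 8 and 27 (-1.57, adjusted p = 7.73e-06) and Nfil3 fell by 1.0 on the log2 scale. Without WT replicate 1, 3 were called higher and 6 lower, without LDHA-KO replicate 2 these were 2 and 4, and by DESeq2 2 and 2. Creb3l2 was -2.49 without LDHA-KO replicate 2 and -1.11 without LDHA-KO replicate 1. Bach1 was -0.81 without LDHA-KO replicate 2 and -2.91 without LDHA-KO replicate 1, and it lost its call in the first of these and without WT replicate 1 (-1.57) or WT replicate 2 (-1.68). The call of Nfil3 was lost without LDHA-KO replicate 2 (-0.64).

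Mitochondrial chaperone and protease genes, markers of stress in that organelle, were called higher more often than lower with TMM scaling. Of 10 tested, 4 rose, 1 fell and 5 were not called (median 0.23), beside 15.6% higher and 15.4% lower over all tested genes. Trap1 rose from 65 and 58 counts to 70 and 91 (47.8 ± 2.74 to 79.6 ± 0.699 CPM; log2 change 0.74 with SE 0.17, adjusted p = 0.00100 by edgeR), and the folding genes Hspe1 and Hspd1 rose by 0.50 and 0.29. The faller was Yme1l1 (-0.61), a protease gene. With library totals alone 1 was called higher, and DESeq2 called 0 of 10, with 2 at an unadjusted p under 0.05. The number called higher was 1 without LDHA-KO replicate 1 and 2 without WT replicate 2 or LDHA-KO replicate 2, and Yme1l1 lost its call without LDHA-KO replicate 2 (-0.37). Hspe1 lost its call without WT replicate 1, LDHA-KO replicate 1 or LDHA-KO replicate 2, and Hspd1 without WT replicate 2 or LDHA-KO replicate 1 (0.13), while Hspd1 was 0.48 without LDHA-KO replicate 2.

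Of 8 paralogues of the 10 genes, 4 passed the filter on low counts. Among those that did not, Cebpa and Cebpe were at 0 counts in every library, Cebpd had 10 and 7 counts in WT and 1 in each LDHA-KO library, and Chac2 had 0 to 4. Trib2, a relative of Trib3, rose from 53.4 ± 7.29 to 82.0 ± 3.92 CPM (log2 change 0.62 with SE 0.17, adjusted p = 0.00478 by edgeR), and Trib1 was not called (-0.41, SE 0.28). Trib2 lost its call without WT replicate 1 (0.48) and was not called by DESeq2 (adjusted p = 0.224).

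**Figure D5:**
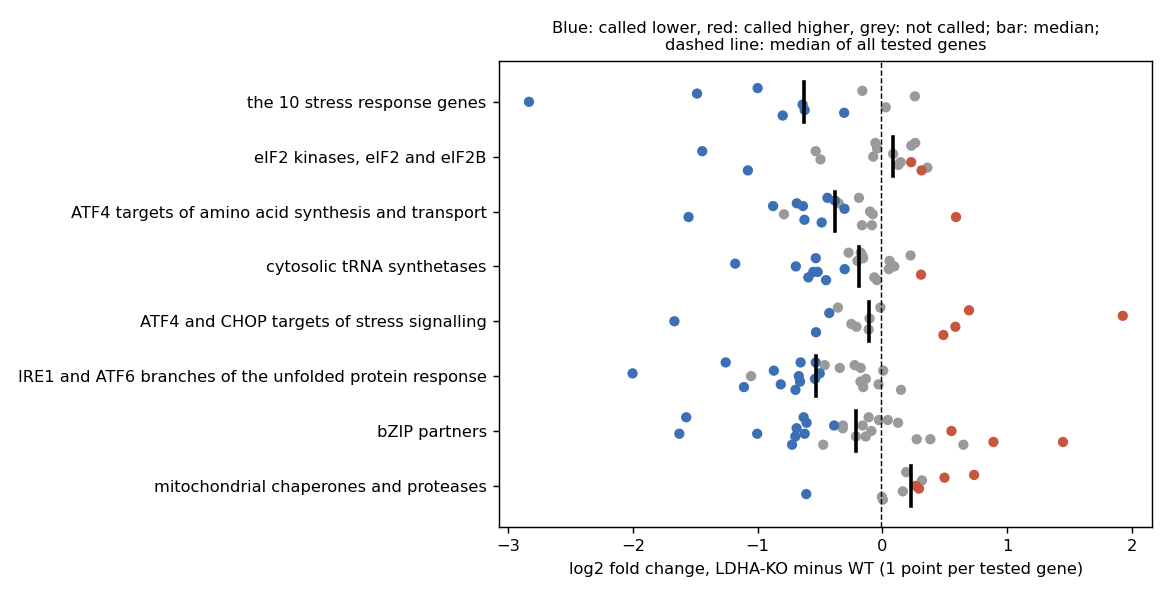
Log2 fold change, LDHA-KO minus WT (horizontal axis), of every tested gene of 8 groups (rows); blue points were called lower and red ones higher, bars are medians and the dashed line is the median of all tested genes (-0.01). The 10 genes (median -0.63) and the IRE1 and ATF6 branches (-0.53) lie furthest to the left, and mitochondrial chaperones (0.23) to the right.

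The core printed above for Asns, Chac1, Nupr1 and Trib3 was then looked for in all tested genes with a promoter window, 7163 in all. Of the 196 that hold it, 55 were called lower (28.1%) and 17 higher (8.67%), with a median log2 fold change of -0.21. Of the 6967 that do not, 1024 were called lower (14.7%) and 989 higher (14.2%), with a median of -0.01. With the 10 genes and all listed genes left out, 46 of 180 with the core were called lower (25.6%) against 996 of 6877 without it (14.5%). Windows with the core were poorer in G and C (median 56.4% against 61.4%). Among windows at or below the median GC of 61.3%, 26.6% of genes with the core and 13.9% of those without were lower, and above it the shares were 32.1% and 15.5%. By the variable base of the core, the shares called lower were 33.9% for A (56 genes), 19.6% for C (51), 22.6% for G (53) and 33.3% for T (42), with a few genes holding more than 1 form. The form with C, which Chac1 and Nupr1 hold, thus had the lowest share of the 4. For the cyclic AMP response element, 40 of 273 were lower (14.7%). Only 12 tested genes hold the endoplasmic reticulum stress element, of which 4 were lower (33.3%) and 1 higher, with a median of -0.20. A higher share of lower calls was thus not seen for the core alone. These shares are descriptions of 1 comparison, and binding was not measured.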

How the data were processed

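The deposited values were counts of reads per gene in 1 table, not normalised. Its columns name genotype and number but no assay, and were taken as the RNA libraries because they hold gene counts. Per the submitters' processing notes, Trimmomatic 0.33, FastQC 0.11.2, STAR 2.3.0e, Bowtie2 2.2.6, HTSeq 0.6.0 and the build mm10 (GRCm38) were used. The sources used here give neither strand setting, annotation release nor treatment of multi-mapped reads. The strand counted and the counts of overlapping genes are thus uncertain. H3K9Ac and input samples were not analysed here.

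Repeated identical rows (4195) were removed, leaving 39179 IDs, of which 37607 matched an Ensembl symbol. Replicates differed by little more than counting noise (chi-square per gene 1.15 in WT and 1.23 in LDHA-KO). The most abundant genes differed by more (2.61 over 403 genes in WT and 5.76 over 309 in LDHA-KO). Differential expression was tested with edgeR 4.0.16 (R 4.3.3), quasi-likelihood, TMM, default filter (minimum count 10, total 15), genotype alone, Benjamini-Hochberg over 9914 genes. The biological coefficient of variation was 4.03%. Only the edgeR and DESeq2 fits were run on simulated counts, with a fixed spread and fewer changed genes than were called here. The other steps were not tested in this way. Alternatives were other scalings and filters, DESeq2 1.42.0, a replicate block and leaving out each library. Standard errors come from the F statistic. Positions, overlaps and promoters are RefSeq's on GRCm38.p6, matched by symbol.

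Genes and lists were chosen with earlier results of these data known. Named were the 10 genes, the 4 called genes of each list with the largest fold change, the eIF2 kinases, sensors and paralogues, overlapping genes and the 5 genes nearest to Atf4. Slc3a2, Kars, Gdf15 and Fgf21 were named after their values were seen.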

Additional observations from a re-analysis of the deposited data

How the results depend on the processing

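Over all genes, 3076 were called, with 901 in DESeq2 and 1973 to 2412 when single libraries were left out (1973 without LDHA-KO replicate 2). Of the 10 stress response genes, 7 were called, all lower. DESeq2 called 0, and 0 lower. Leaving out single libraries gave 4 to 5 called and 4 to 5 lower. A fit with the replicate number as a block called 2803 genes and 6 of the 10, all lower, with Ddit3 lost (adjusted p = 0.0507). Same-numbered libraries did not deviate together (r = -0.03 across 7113 genes, which are not independent), so the numbers were not taken as pairs. Nupr1, Chac1, Asns and Cebpb were called in 9 of 9 edgeR alternatives. Over the named genes, 429 of the alternatives' values kept direction and side of the threshold, 76 lost the call, 5 gained it and 17 changed sign.

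The changes of sign were all in genes not called. With library totals alone the log2 fold change was -0.056 for Atf4, -0.068 for Nans, -0.065 for Gm5898, -0.034 for Gimap5, -0.062 for Atg4d and -0.082 for Rab7. That scaling moved the median of all tested genes by -0.083, and each of these genes by about as much. Leaving out single libraries gave ranges of -0.028 to 0.090 for Atf4, -0.047 to 0.081 for Nans, -0.051 to 0.089 for Gm5898, -0.0057 to 0.11 for Gimap5, -0.012 to 0.068 for Atg4d and -0.057 to 0.064 for Rab7, each lowest without LDHA-KO replicate 2 and highest without LDHA-KO replicate 1. Rab7 stood at -0.00023 with no filter on low counts and -0.0019 with the replicate block. The cause of the other changes of sign was not tested. Genes with under about 10 counts in a library, such as Nupr1 and Chac1 in LDHA-KO, are limited by depth.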
